A study of Mus musculus with 4 samples.

Results

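The 9 genes of arginine metabolism and transport were followed at the RNA level in macrophages sorted from mouse-hosted brain tumours. They are Arg1, Arg2, Nos2, Slc7a1, Slc7a2, Odc1, Ass1, Asl and Gch1, taken by symbol out of 54532 genes in the deposited table. Each symbol matched 1 row. The macrophages came from glioblastoma xenografts, human tumours grown in mice, and were sorted as live cells positive for CD45 and CD11b and negative for Gr1. Bulk RNA sequencing covered 2 libraries treated with MK-8931, or verubecestat, which blocks the aspartic protease BACE1, and 2 control libraries, for which the protocol names a vehicle. The labels give a treatment of 3 days, but word it for cultured glioma stem cells, so how the compound reached the macrophages is not settled by them. No dose, host strain, sex or age is given beyond the entry "GBM mice", and the labels do not say that libraries came from separate animals. The p-values therefore measure only the spread between these libraries, which may be technical.

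Arginine enters macrophages through cationic amino acid transporters and is then split between competing enzymes. Arginase turns it into ornithine and urea, and ornithine decarboxylase opens the route from ornithine to the polyamines. Inducible nitric oxide synthase oxidises arginine to nitric oxide and citrulline, with tetrahydrobiopterin as its cofactor. Citrulline can be built back into arginine by argininosuccinate synthase and argininosuccinate lyase. In mouse macrophages, high arginase 1 is a classical mark of the alternatively activated state, and inducible nitric oxide synthase of the classically activated one.

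Library totals lay between 18257930 and 20179875 counts. Listed macrophage markers were abundant. Ptprc and Itgam among them, named after their values were seen, encode the sort markers CD45 and CD11b, so their presence followed from the sort. The 12 listed genes, led by Lyz2 and C1qa, summed to 14756 and 16598 CPM (read counts scaled to a common library total) with MK-8931 and to 15551 and 20171 CPM in controls. Neutrophil markers were higher in the treated libraries, although the sort removed Gr1-positive cells. Of 16 tested neutrophil genes 14 rose, and all 16 had a log2 fold change above 0, with a median of 3.46. The list was chosen with earlier results of these data known. G0s2 and Stfa2l1, named after their values were seen, passed the count filter only through the treated libraries. In controls they had 0 and 7 counts and 4 and 9 counts in turn. The filter fixed the direction of such genes, so these counts and this median are a description only. The 21 listed, led by Mmp9 and Csf3r, summed to 1346 and 2096 CPM with MK-8931, against 501 and 459 CPM in controls. Mmp9 alone gave 632 and 939 CPM with MK-8931 and 375 and 349 CPM in controls. The granule gene Elane, named after its values were seen, was at 0 in every library. Ly6g, named likewise, had no count in MK-8931 1 or in either control and 0.761 CPM in MK-8931 2. Neither Elane nor Ly6g reached the count filter, so neither was among the 16 tested. Cxcr2, also named after its values were seen, was at 53.1 and 74.4 CPM with MK-8931 and 1.56 and 0.818 CPM in controls. Of 10 monocyte genes 6 rose. Ccr2 was among them, at 133 and 145 CPM with MK-8931 and 69.0 and 40.0 CPM in controls, and Fn1, the most abundant of the list, was not (adjusted p = 0.920). Of 3 tested red cell and platelet genes Pf4 and Ppbp rose. Ccl22 rose among 11 dendritic cell genes and Itgam, which encodes the sorted marker CD11b, among 12 macrophage genes, both named after their values were seen. No gene passed among 7 microglial, 4 endothelial, 2 glial and 1 mast cell and basophil genes tested, and no lymphocyte gene reached the count filter. In edgeR's quasi-likelihood test those 4 lists held 4, 2, 1 and 1 genes at an unadjusted p under 0.05, and DESeq2 called 2, 1, 1 and 0. Among the 12 macrophage genes 6 had an unadjusted p under 0.05 in that test and DESeq2 called 2. Their log2 fold changes were above 0 for 4 and below 0 for 8. Over all tested genes the shares in that test were 0.998% at an adjusted p under 0.05 and 10.8% at an unadjusted p under 0.05. DESeq2 called 2.56%. In bulk samples, fewer cells of a type and less RNA per cell cannot be told apart.

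**Figure D1:**
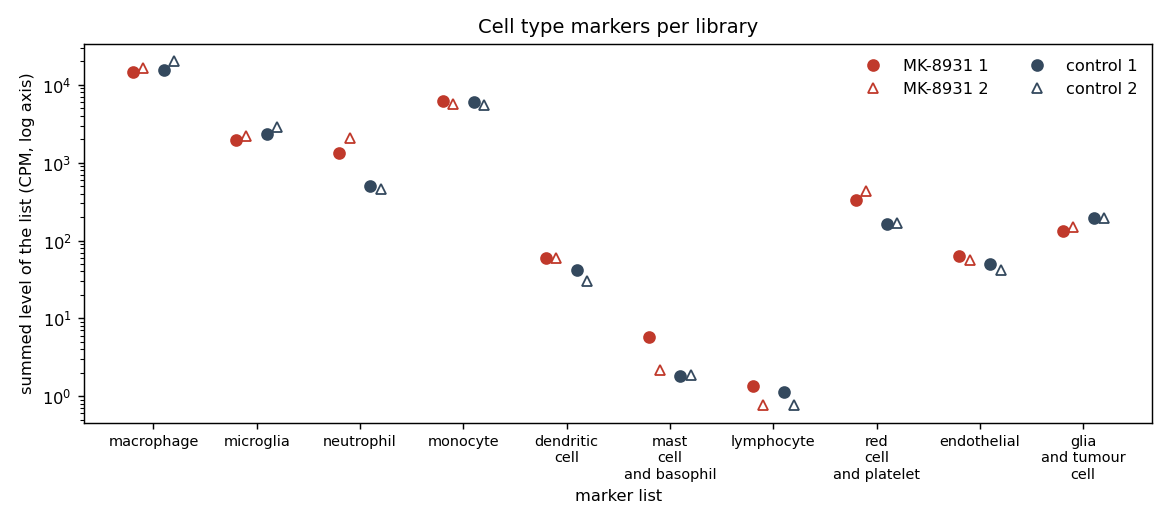
Summed level of each cell type marker list (CPM, log axis) in each library, with MK-8931 in red left of control in blue. Circles are replicate 1 and triangles replicate 2. The neutrophil sums are 1346 and 2096 CPM with MK-8931, above both controls, while macrophage sums overlap.

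Nos2 and Arg2 rose with MK-8931, and the other 7 genes did not pass the test. The fitted level was 3.76-fold higher for Nos2 and 3.09-fold higher for Arg2. Among all 13932 genes tested with edgeR's quasi-likelihood test, 0.998% passed an adjusted p of 0.05, with 0.861% higher and 0.136% lower. All 9 members passed the filter on low counts. For 7 of them both treated libraries lay on one side of both controls, 5 higher and 2 lower, a pattern that 41.2% of all tested genes shared. The median log2 fold change was 0.30 over the 9 genes, against -0.003 over all genes, and the median absolute change was 0.54, against 0.20.

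Levels per unit length are given as FPKM, read counts scaled for exon length and by 1 factor in each library. That factor is near the library total but not equal to it, for instance 19520463 against 20179875 counts in control 2. Exon length covers every base in an exon of any transcript of the gene, so comparisons between genes depend on the annotation. Arg1 led the 9 genes in both groups by a wide margin, at 945 ± 154 FPKM with MK-8931 and 611 ± 97.6 FPKM in controls (SD, n = 2 each). With MK-8931, Nos2 was next at 35.6 ± 1.67, and Odc1, Slc7a2 and Ass1 followed at 35.4 ± 4.24, 33.8 ± 1.23 and 31.9 ± 2.21 FPKM. Their library ranges formed 1 overlapping run, with Nos2 and Ass1 themselves apart. In controls Slc7a2 came next at 50.6 ± 0.219 FPKM, then Odc1 at 42.6 ± 4.35 and Ass1 at 22.1 ± 2.88, with no overlap between these neighbours. Nos2 was only the fifth gene in the control order, at 9.52 ± 2.86 FPKM, and its range overlapped those of Asl and Slc7a1. The lowest gene was Gch1 in the treated libraries (5.73 ± 0.397 FPKM) and Arg2 in the controls (2.63 ± 0.678 FPKM).

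**Figure D2:**
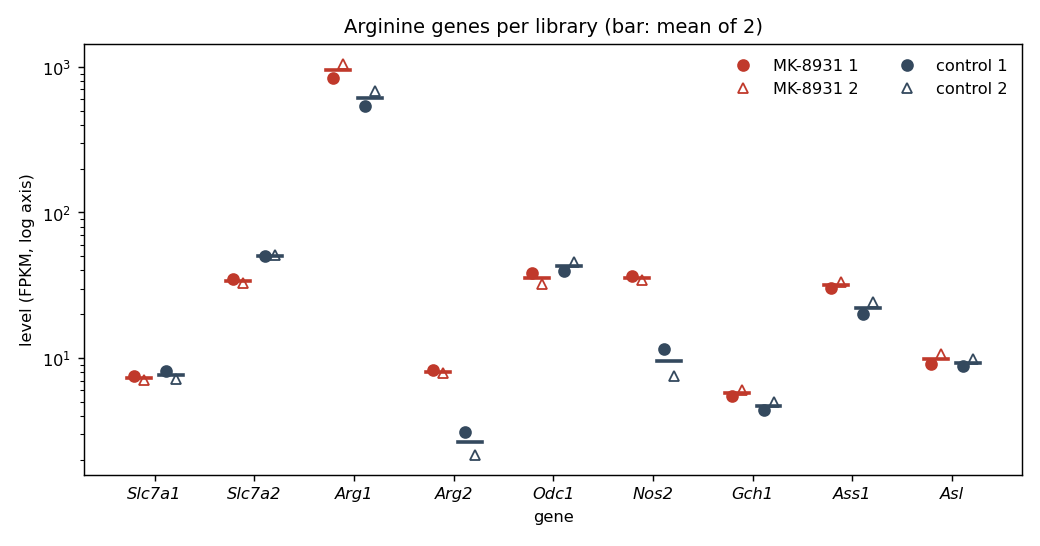
Level of the 9 arginine genes in each library (FPKM, log axis), ordered from transport through arginase and polyamine synthesis to nitric oxide and arginine resynthesis. Points are libraries, red for MK-8931 and blue for control, and bars are means of 2. Nos2 and Arg2 show the widest gaps between groups, while Arg1 is highest throughout, up to 1054 FPKM in MK-8931 2.

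The transporters Slc7a1 and Slc7a2 encode CAT1 and CAT2, carriers of arginine, lysine and ornithine. CAT1 is the widely expressed form, and CAT2 is the form known to supply arginine to induced nitric oxide synthase in mouse macrophages. Slc7a2 (chromosome 8, 40862396 to 40922308, GRCm38, plus strand) stood at 34.7 and 32.9 FPKM with MK-8931, against 50.4 and 50.7 FPKM in controls. Both treated libraries were lower than both controls, and the controls differed from each other by far less than the groups did. The fitted log2 fold change was -0.57 (SE 0.12, 95% interval -0.84 to -0.30), and the adjusted p of 0.0698 missed the threshold. DESeq2 called the lower level (adjusted p = 0.00429), as did the quasi-likelihood test without control 1 (0.0100), without control 2 (0.0418) or with no filter on low counts (0.00415). Without MK-8931 1 or MK-8931 2 the adjusted p was 0.349 and 0.531. The authors' deposited table lists -0.58 for Slc7a2, with 0.00266 as its adjusted p. Slc7a2 shares 635 exon bases with Gm26584, a non-coding gene on the opposite strand that had 48 and 11 counts with MK-8931 and 24 and 5 in controls. Slc7a1 (chromosome 5, 148327410 to 148399904, minus strand) had 7.58 and 7.10 FPKM with MK-8931, against 8.20 and 7.17 FPKM in controls. Its groups overlapped, and the log2 fold change was -0.06 (95% interval -0.38 to 0.26, adjusted p = 0.942).

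Arg1 encodes the cytosolic arginase and Arg2 the mitochondrial one, and Arg1 stood at 101 and 133 times the FPKM of Arg2 with MK-8931, against 174 and 316 times in controls. Arg1 (chromosome 10, 24915221 to 24927484, minus strand) was counted 36545 and 43540 times with MK-8931, against 22552 and 29570 times in controls. These counts correspond to 835 and 1054 FPKM in the treated libraries and 542 and 679.9 FPKM in the controls. Both treated libraries exceeded both controls. In CPM, replicates differed 1.26-fold with MK-8931 and 1.24-fold in controls, less than the 1.56-fold difference between the group means. By FPKM, Arg1 ranked 34th and 24th among all genes with MK-8931 and 50th and 53rd in controls. The log2 fold change was 0.64 (SE 0.16, 95% interval 0.27 to 1.01), and the adjusted p of 0.138 missed the threshold. The call for Arg1 depended on the setting. DESeq2 called it (adjusted p = 0.0120), and so did the quasi-likelihood test without control 1 (0.0466), without control 2 (0.00240) or with no filter on low counts (0.00165). Leaving out MK-8931 1 or MK-8931 2 gave 0.196 and 0.737, and the authors' deposited table lists an adjusted p of 0.0103.

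Arg2 (chromosome 12, 79130777 to 79156301, plus strand) had 231 and 210 counts with MK-8931, against 83 and 60 in controls. In FPKM this was 8.24 and 7.93 in the treated libraries and 3.11 and 2.15 in the controls. The groups lay far apart, and the treated pair differed by only 1.04-fold. The rise was 1.63 on the log2 scale (SE 0.29, 95% interval 0.98 to 2.28, adjusted p = 0.0384). The call was lost without MK-8931 1 (adjusted p = 0.0628) or MK-8931 2 (0.0594), and with limma on log2(FPKM + 1) (0.0694) or log2(FPKM + 0.1) (0.0712). Arg2 shares exon bases with genes on the opposite strand, 285 with Vti1b and 116 with the antisense gene Gm48780. Vti1b had 1180 and 1319 counts with MK-8931 and 1087 and 1668 in controls, and Gm48780 had 21 and 12 with MK-8931 and 0 and 1 in controls. Whether counting used strand is not given in the sources used here, so reads from such pairs cannot be told apart.

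Nos2, which encodes the inducible nitric oxide synthase (chromosome 11, 78920787 to 78960254, plus strand), changed most among the 9 genes. It had 3186 and 2816 counts with MK-8931, against 951 and 646 in controls, or 36.8 and 34.4 FPKM against 11.5 and 7.50 FPKM. The controls differed 1.55-fold from each other and the treated libraries 1.07-fold, and the lower treated library stood well above the higher control. The log2 fold change was 1.91 (SE 0.20, 95% interval 1.45 to 2.37, adjusted p = 0.00352). By p-value Nos2 was the 31st of all genes tested, and its log2 fold change stayed between 1.63 and 2.25 with each library left out. The authors' deposited table gives 1.90. The other synthases, named after their values were seen, were low. Nos3 had 0.410 and 0.326 CPM with MK-8931 and 0.592 and 0.613 CPM in controls (adjusted p = 0.869). Nos1 was at 0.205 CPM or lower in each of the 4 libraries.

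Gch1 encodes GTP cyclohydrolase 1, the first and rate-limiting enzyme of tetrahydrobiopterin synthesis (chromosome 14, 47153895 to 47189413, minus strand). Its level was 5.45 and 6.01 FPKM with MK-8931, against 4.39 and 5.02 FPKM in controls. Both treated libraries were above both controls, and the group means differed by more than the replicates of either group did. The log2 fold change of 0.30 (SE 0.16, 95% interval -0.07 to 0.66) did not pass (adjusted p = 0.593). Gchfr, the feedback regulator of this enzyme, was at 1.28 and 0.707 CPM with MK-8931 and 1.72 and 1.74 CPM in controls (adjusted p = 0.749).

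Neutrophil markers, and some monocyte, dendritic cell and platelet markers, were higher in the libraries where Nos2 and Arg2 were higher. The summed neutrophil list was at 1346 and 2096 CPM with MK-8931, against 501 and 459 CPM in controls, with 14 of 16 tested genes higher. The median log2 fold change of the 16 was 3.46, but some of them passed the count filter only through the treated libraries. The summed monocyte list overlapped between groups, at 6138 and 5704 CPM with MK-8931 and 5976 and 5564 CPM in controls. Most of this sum was Fn1, at 5539 and 5028 CPM with MK-8931 and 5697 and 5375 CPM in controls. The sum therefore says little about the rest of the list. Of its 10 genes 6 rose, and 9 had a log2 fold change above 0 and 1 below, with a median of 1.64. Among 11 dendritic cell genes 1 rose and DESeq2 called 1. In edgeR's quasi-likelihood test 5 of them had an unadjusted p under 0.05, beside 10.8% of all genes. Their log2 fold changes were above 0 for 9 and below 0 for 2, with a median of 1.09. Of 3 tested red cell and platelet genes 2 rose. Nos2 itself stood at 163 and 153 CPM with MK-8931 and 51.2 and 33.0 CPM in controls. The larger neutrophil sum was in MK-8931 2. Between the treated libraries Nos2 differed only 1.07-fold and Arg2 only 1.04-fold, and these libraries cannot show whether either gene follows the sum. The part of other cell types in the rises of Nos2 and Arg2 was not tested.

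**Figure D3:**
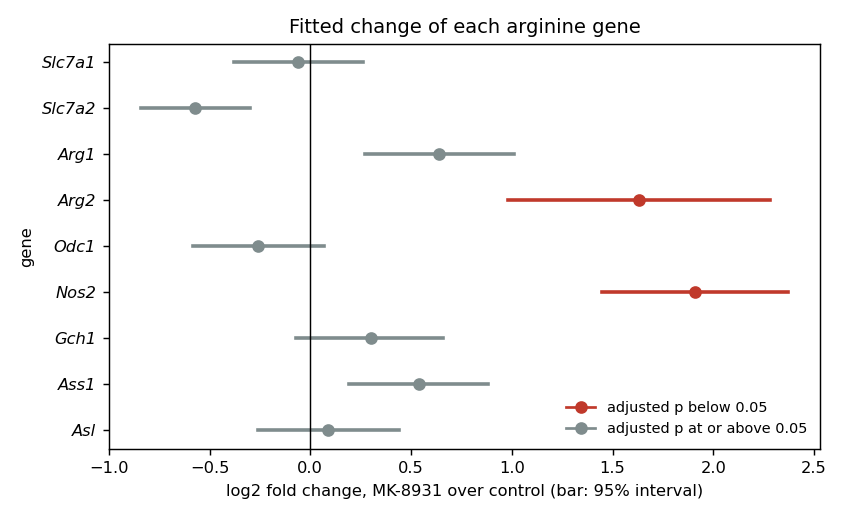
Fitted log2 fold change of each gene, MK-8931 over control, with its 95% interval from edgeR's quasi-likelihood fit. Red marks an adjusted p below 0.05. Nos2 (1.91) and Arg2 (1.63) are in red, and the intervals of Arg1, Ass1 and Slc7a2 lie off 0 before adjustment but did not pass over all genes.

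Ass1 and Asl encode argininosuccinate synthase and lyase, the 2 steps that rebuild arginine from citrulline. Ass1 (chromosome 2, 31470207 to 31520672, plus strand) had 30.3 and 33.4 FPKM with MK-8931, against 20.1 and 24.1 FPKM in controls. The groups did not overlap, and the lower treated library stood further above the higher control than either pair of replicates stood apart. The log2 fold change was 0.54 (SE 0.15, 95% interval 0.19 to 0.88), with an adjusted p of 0.187. Asl (chromosome 5, 130011258 to 130029247, minus strand) was at 9.12 and 10.6 FPKM with MK-8931 and at 8.80 and 9.83 FPKM in controls. Its groups overlapped, and its log2 fold change of 0.09 (95% interval -0.26 to 0.44, adjusted p = 0.909) did not pass. Ass1 thus stood at 3.32 and 3.15 times the FPKM of Asl with MK-8931, and 2.28 and 2.46 times in controls. The lengths used were 2414 bases for Ass1 and 4831 for Asl, so the size of this ratio depends on the annotation.

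Odc1 encodes ornithine decarboxylase, the enzyme that commits ornithine to polyamine synthesis (chromosome 12, 17544794 to 17551505, plus strand). It had 38.4 and 32.4 FPKM with MK-8931, against 39.5 and 45.7 FPKM in controls. Both treated libraries were lower, but MK-8931 1 lay close to control 1. The log2 fold change was -0.26 (SE 0.14, 95% interval -0.58 to 0.07, adjusted p = 0.597).

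Promoter windows from RefSeq (GRCm38.p6, 250 bases before to 50 after a start site) matched 4 of the 9 genes: Ass1, Gch1, Odc1 and, with 2 start sites, Slc7a1. Those of the 3 whose groups did not overlap are shown, because they stand for resynthesis of arginine, cofactor supply and ornithine use. None of the 3 passed the test, and 41.2% of all tested genes had groups apart in this way. Capitals mark matches, on either strand, to the motifs named after them. The windows are chr2:31470020-31470319 (plus strand) for Ass1, chr14:47189364-47189663 (minus strand) for Gch1 and chr12:17544623-17544922 (plus strand) for Odc1.
Ass1: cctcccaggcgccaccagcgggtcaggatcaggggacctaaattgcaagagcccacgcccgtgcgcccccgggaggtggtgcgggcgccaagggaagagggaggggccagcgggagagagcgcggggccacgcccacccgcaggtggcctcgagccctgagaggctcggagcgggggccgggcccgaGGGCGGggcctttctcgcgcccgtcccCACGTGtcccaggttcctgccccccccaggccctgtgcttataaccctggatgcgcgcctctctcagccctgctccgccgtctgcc
Gch1: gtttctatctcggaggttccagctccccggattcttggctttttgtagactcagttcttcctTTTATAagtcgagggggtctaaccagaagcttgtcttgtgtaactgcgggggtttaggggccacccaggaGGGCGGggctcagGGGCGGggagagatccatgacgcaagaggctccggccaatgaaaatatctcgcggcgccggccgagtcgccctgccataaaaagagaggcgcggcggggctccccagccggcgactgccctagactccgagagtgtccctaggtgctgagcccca
Odc1: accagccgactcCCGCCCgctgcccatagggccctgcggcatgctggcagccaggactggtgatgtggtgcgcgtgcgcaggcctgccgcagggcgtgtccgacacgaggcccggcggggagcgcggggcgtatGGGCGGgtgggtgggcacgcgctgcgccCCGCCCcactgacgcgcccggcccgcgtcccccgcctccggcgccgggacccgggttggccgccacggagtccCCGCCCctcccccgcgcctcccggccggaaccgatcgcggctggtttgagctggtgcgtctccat

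The following 6 motifs were searched as fixed letters on both strands. The C/EBP motif was searched as TTGCNNAA and the AP-1 motif as TGANTCA. The E-box was searched as CACGTG, and GAS, an element bound by STAT proteins, as TTCNNNGAA. The TATA box was searched as TATAAA and the GC box as GGGCGG. The Ass1 window held 1 GC box at -63 and 1 E-box at -36, counted from the start site to the first base of the match. Odc1 had 4 GC boxes and no other match. Gch1 had 2 GC boxes, at -118 and -105, and a TATA match on the opposite strand at -188. Of the Slc7a1 windows, which are not shown, 1 held a GAS match at -146 and a TATA box at -28. The other held an AP-1 match at -123 and a GC box at -36. No marked matches overlapped each other. Among all 32851 windows in the table, 10.8% held the C/EBP letters, 7.81% AP-1, 7.15% the E-box, 8.30% GAS, 13.6% the TATA box and 35.7% the GC box. The 3 windows shown were rich in G and C, at 74.0% for Ass1, 60.3% for Gch1 and 78.0% for Odc1, against a median of 52.7% over all windows. Such matches describe the letters in these windows only.

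Ratios within a library show how the balance between the genes differed, free of library scaling. Arg1 exceeded Nos2 by 22.7 and 30.6 times in FPKM with MK-8931, against 47.0 and 90.6 times in controls. Both treated ratios were lower than both control ratios, since Nos2 had the larger fold change of the pair. The difference in mean log2 ratio was -1.31. Leaving out each library, an alternative chosen after seeing the data, gave -1.78 without control 1, -0.83 without control 2, -1.09 without MK-8931 1 and -1.52 without MK-8931 2. Gch1 stood at 0.148 and 0.175 times the level of Nos2 with MK-8931, and 0.380 and 0.669 times in controls. Slc7a2 stood at 4.57 and 4.64 times Slc7a1 in the treated libraries and 6.15 and 7.08 times in controls. Their summed level was 42.2 and 40.0 FPKM with MK-8931 and 58.6 and 57.9 FPKM in controls. Arg1 was at 21.8 and 32.5 times Odc1 with MK-8931, against 13.7 and 14.9 times in controls. For each of these pairs the groups did not overlap, but 41.2% of all tested single genes also had groups apart. The share over other pairs was not computed. With 2 libraries against 2, a two-sided exact permutation test cannot go below 0.333, and none was run.

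**Figure D4:**
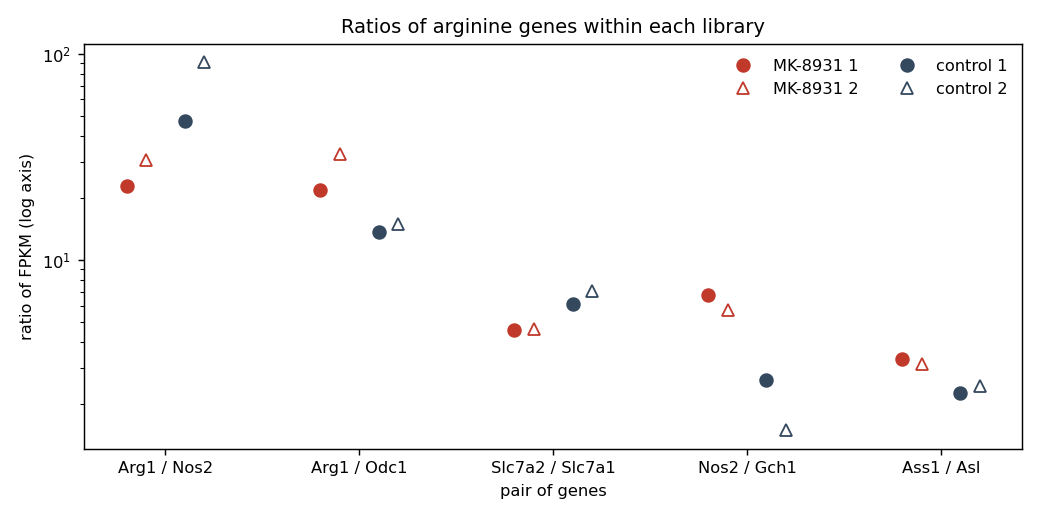
Ratio of FPKM values of 5 gene pairs within each library (log axis), MK-8931 in red left of control in blue. The Arg1 to Nos2 ratio is 22.7 and 30.6 with MK-8931 and 47.0 and 90.6 in controls. The groups are also apart for the other pairs shown, as they are for 41.2% of single tested genes.

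Other genes around the arginine pathway were described through 6 lists. Of their 86 genes 75 were tested, and 0 rose and 1 fell in edgeR's quasi-likelihood test, a share of 1.33% beside 0.998% of all genes. An unadjusted p under 0.05 was reached by 12 of the 75 (16%), beside 10.8% of all genes. DESeq2 called 5 (6.67%), of which 3 were higher and 2 lower, beside 2.56% of all genes. The median of the 75 log2 fold changes was -0.05, beside -0.003 for all tested genes. The gene that fell was Klf4, a transcription factor known to promote Arg1 and restrain Nos2 in mouse macrophages. It had 193 and 146 CPM with MK-8931, against 326 and 367 CPM in controls. The fall was 1.03 on the log2 scale (SE 0.16, adjusted p = 0.0226). It did not pass without MK-8931 2, where the log2 fold change was -0.86 (adjusted p = 0.124), or with limma on log2(FPKM + 1) (0.0979). Of the 23 listed receptors and factors known to induce Nos2 or Arg1, no other passed in that test, and the list median was 0.12. In that list 8 genes (34.8%) had an unadjusted p under 0.05, beside 10.8% of all genes, and DESeq2 called 4 (17.4%), beside 2.56%. Cebpd, Csf2rb and Cebpb, chosen after their values were seen, came nearest from the other direction. Cebpd, a C/EBP factor of inflammatory responses, was at 36.2 and 44.0 CPM with MK-8931 and 20.2 and 22.6 CPM in controls (adjusted p = 0.0537). Csf2rb, the shared beta chain of the GM-CSF, interleukin-3 and interleukin-5 receptors, was at 335 and 329.8 CPM with MK-8931 and 221 and 172 CPM in controls (adjusted p = 0.0543). Cebpb, a factor required for Arg1 induction in mouse macrophages, was at 358 and 478 CPM with MK-8931 and 262 and 252 CPM in controls (adjusted p = 0.0885).

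In the other 5 lists no gene passed in edgeR's quasi-likelihood test. Among 12 tested polyamine genes the median was -0.11, 2 genes had an unadjusted p under 0.05, and DESeq2 called 1. Sat1, the acetyltransferase that starts polyamine breakdown, was at 429.7 and 506 CPM with MK-8931, against 654 and 789 CPM in controls (adjusted p = 0.111). Smox, spermine oxidase, was at 201 and 225 CPM with MK-8931 and 168 and 166 CPM in controls (adjusted p = 0.323). Of 9 tested genes of the urea cycle and of ornithine, proline and creatine metabolism, 1 had an unadjusted p under 0.05 and DESeq2 called 0, with a median of -0.01. That gene was Gatm, which uses arginine for creatine synthesis, at 1470.1 and 1675 CPM with MK-8931 and 1927 and 2239.8 CPM in controls (adjusted p = 0.289). Otc, Cps1, Nags and Agmat, named for this after their values were seen, had no count in any library, and Pycrl, a proline synthesis gene, had an adjusted p of 0.623. Each zero allows a level of up to 0.153 to 0.163 CPM, the level of 3 counts, by counting error only.

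Among 8 tested genes of other arginine transport the median was -0.11, with 0 genes at an unadjusted p under 0.05 and 0 called by DESeq2. Slc7a4 (log2 fold change -0.59, adjusted p = 0.559) and Slc7a6, a y+LAT exchanger (-0.29, adjusted p = 0.586), had the smallest p-values. For the 13 tested genes of other nitric oxide synthases and tetrahydrobiopterin the median was -0.05, with 1 at an unadjusted p under 0.05 and 0 called by DESeq2. That was Cav1, the caveolin that binds endothelial nitric oxide synthase, at 20.5 and 22.9 CPM with MK-8931 and 17.0 and 15.3 CPM in controls (adjusted p = 0.454). The 10 tested genes of arginine methylation and dimethylarginine breakdown had a median of -0.17, 0 at an unadjusted p under 0.05 and 0 called by DESeq2. Ddah2, which breaks down the synthase inhibitor asymmetric dimethylarginine, was at 8.98 and 11.4 CPM with MK-8931 and 12.2 and 16.6 CPM in controls (adjusted p = 0.536). For Prmt2, an arginine methyltransferase, the adjusted p was 0.680.

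**Figure D5:**
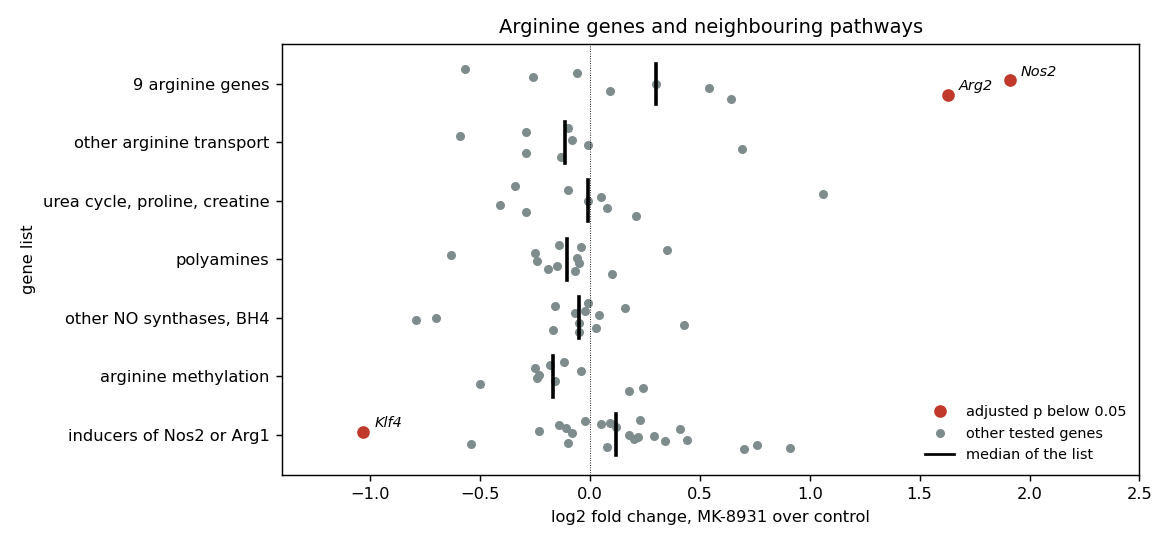
Log2 fold change, MK-8931 over control, of each tested gene in the 9 arginine genes and in 6 lists of neighbouring pathways. Red marks an adjusted p below 0.05 and vertical bars are list medians. Nos2 and Arg2 stand to the right of the other lists and Klf4 (-1.03) to the left.

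By distance between centred log2 CPM profiles over the 4 libraries, among 9634 genes with a mean of at least 5 CPM, the genes nearest to Nos2 were Trem1, Mxd1 and Arg2 (distances 0.296, 0.326 and 0.327). Trem1, a myeloid receptor that amplifies inflammatory signals and a member of the neutrophil list, was at 72.0 and 86.0 CPM with MK-8931, against 29.2 and 17.4 CPM in controls. Mxd1, which encodes a partner of MAX, was at 163 and 177 CPM with MK-8931, against 43.1 and 31.5 CPM in controls. Each of these profiles shares with Nos2 a higher level in control 1 than in control 2. The genes nearest to Arg1 were Tm7sf2, a sterol reductase gene, S100a6, a calcium-binding protein gene, and Zfp809, a zinc finger gene (distances 0.059, 0.089 and 0.107). S100a6 was at 161 and 202 CPM with MK-8931 and 107 and 139.7 CPM in controls, and like Arg1 it did not pass (adjusted p = 0.232). Likeness over 4 libraries of 2 groups is a description only.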

How the data were processed

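Bulk RNA sequencing of sorted tumour-associated macrophages gave 4 libraries, grouped by their titles. The authors deposited a table of whole-number read counts for each gene and, per the file headers, FPKM. Tested on the table, FPKM is the count scaled by 1 factor in each library and by gene length, which is the GENCODE M21 exon union for all 9 genes. The authors' deposited table also gives normalized values, log2 fold changes and p-values with no test named. CASAVA and mm9 are named in the submitters' processing notes, but 98.3% of shared gene identifiers carry GRCm38 coordinates, used here. For the aligner, counter and strand setting the sources used here give nothing.

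Counts were tested with edgeR 4.0.16 in R 4.3.3 (filterByExpr with a minimum count of 10, TMM scaling, robust quasi-likelihood F test, two-sided, Benjamini-Hochberg over 13932 genes, threshold 0.05). Intervals are not adjusted, and CPM is TMM-scaled. The procedure was run on counts simulated with known changes, with a spread set by expression level and not by gene. The outcome is not reported here and is not used for any result. Alternatives used DESeq2 1.42.0, limma 3.58.1, other scaling, no filter, pseudocounts of 1 and 0.1 on FPKM, a replicate block and each library left out. Replicates were no repeat deposits (chi-square over degrees of freedom 15.7 for MK-8931, 26.8 for controls).

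The 9 genes and the lists were chosen with earlier results of these data known. Named genes were the 9, the genes past the threshold in each pathway list or else the 2 with the smallest p, the 3 nearest to Arg1 and to Nos2, and the 2 most abundant of a marker list. Other genes are said to be named after seeing their values, or share exon bases with 1 of the 9.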

Additional observations from a re-analysis of the deposited data

How the results depend on the processing

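Over 13 alternatives for each of the 9 genes (117 values), 100 kept their direction and their side of the threshold, 11 gained a call, 4 lost one and 2 changed sign. Nos2 passed in all 13, with adjusted p at most 0.0407. The 4 losses were those of Arg2, with adjusted p up to 0.0712. The sign changes were in genes near 0: with each library left out, Slc7a1 ranged from -0.16 to 0.04 and Asl from -0.04 to 0.19. The count of arginine genes past the threshold was 2 as reported, 4 with no filter, 4 with DESeq2, 1 with limma on log2(FPKM + 1) and 1 on log2(FPKM + 0.1), and 1 to 4 with each library left out (4 without either control library, 1 without either MK-8931 library). The count among the genes of the wider pathway was 1 of 75 tested as reported, 6 of 80 with no filter, 5 with DESeq2, 2 with limma-voom, 0 with either limma fit on FPKM, and 0 to 7 with each library left out (7 without control 1, 3 without control 2, 0 without MK-8931 2). Over all genes it was 139 as reported, 542 with no filter, 357 with DESeq2, 61 and 54 with limma on FPKM, and 95 to 763 with each library left out (763 without control 1, 221 without control 2). A library then alone in its group is assumed to vary like the other group. The cause of these differences was not tested. With the replicate number as a block (replicate block), 5 arginine genes, 10 wider pathway genes and 743 of all genes passed, adding Arg1, Slc7a2 and Ass1. The labels do not say that a number pairs libraries, and with 2 pairs the deviations of same-numbered libraries (r = 0.197 over 13932 genes) do not settle it. Arg2, with 60 to 231 counts per library, was the least deeply measured of the 9 genes. With 2 libraries per group, small changes such as that of Gch1 may not be detectable.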
